A study of Triticum aestivum with 4 samples.

Results

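TaCCA1-7D is the D-subgenome copy of CIRCADIAN CLOCK-ASSOCIATED 1, a core clock transcription factor of wheat. The wide peaks described here are the longest stretches of wheat DNA that it enriched in a binding assay, and they were chosen by width: a peak counted as wide when its end minus its start came to 1000 bp or more. Of the 467343 peaks in the list, 17742 were wide, or 3.8% (95% Wilson interval 3.74 to 3.85%). The rule alone fixes this share. Width is a value of the peak calling itself, so width, fold enrichment, pileup, background and summit position are given as descriptions and were not tested. The 95484 peaks of 300 bp or less, here called narrow, stand beside them for comparison.

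The study used DNA affinity purification and sequencing (DAP-seq), in which sheared genomic DNA is exposed to a purified, tagged factor and the bound fragments are sequenced. The bait, a fusion of TaCCA1-7D with maltose-binding protein made in bacteria, was held on amylose resin, so other proteins of the plant took no part. The TaCCA1-7D DAP-seq group had 2 libraries and the input group 2, all from leaves of 2-week-old seedlings of the cultivar Fielder under long days, with DNA sonicated to 300 to 1000 bp. One peak list was deposited for them together, and hence neither the spread between replicates nor the level in the input libraries is known for any peak.

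CCA1 is a MYB-type protein that binds DNA through a SANT domain. In Arabidopsis it accumulates around dawn and represses evening-phased genes through a short A- and T-rich word in their promoters, the evening element. Bread wheat carries 3 subgenomes, A, B and D, and each homoeologous group holds the corresponding A, B and D chromosomes. Because DAP-seq offers the protein DNA without chromatin, a peak reports where the protein could hold the sequence and not whether the site is open in the leaf.

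A TaCCA1-7D site is short beside a wide peak. The 4 probes that the study designed from target promoters for its binding assays are shown for that scale, each by its reverse-strand oligonucleotide written 5′ to 3′, with the AATATC core in capitals.
DAP1: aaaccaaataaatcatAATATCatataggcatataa
DAP2: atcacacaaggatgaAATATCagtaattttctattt
DAP3: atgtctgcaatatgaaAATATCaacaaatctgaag
DAP4: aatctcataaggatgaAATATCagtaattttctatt
Each holds the core once, counting both strands, in 35 to 36 nt. They come from the promoters of TraesCS1D02G226100, TraesCS1D02G295200, TraesCS2B02G491700 and TraesCS3B02G186700. These promoters were not placed on the peak list, and the sequences of the wide peaks themselves were not used here, so the number of cores per wide peak is not given.

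The wide peaks formed the tail of a continuous distribution and not a separate class. Their median width was 1104 bp, with quartiles at 1044 and 1198 bp, whereas narrow peaks had a median of 242 bp and all listed peaks a median of 482 bp. Of the wide peaks, 8589 (48.4%) were shorter than 1100 bp, 379 (2.14%) reached 1500 bp and 10 reached 2000 bp. The 119 peaks of exactly 1000 bp had a median fold enrichment of 7.18, and the 122 peaks of 999 bp had one of 7.00. Taking 10 widths on each side, the 1133 peaks just inside the limit and the 1208 just outside both had a median fold enrichment of 6.94, with a median pileup of 16 tags inside and 15 outside. Peaks on both sides of the limit were thus of like strength. Together the wide peaks covered 20.2 Mb, or 8.37% of all peak length, while the far more numerous narrow peaks covered 9.52% of it.

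**Figure D1:**
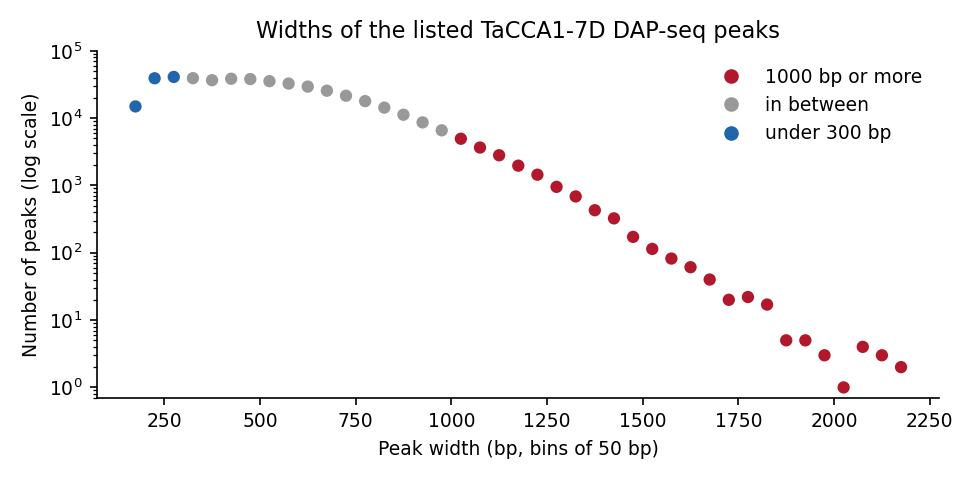
Number of listed peaks by width, in bins of 50 bp, on a log scale, with peaks of 1000 bp or more, peaks in between and peaks under 300 bp in different colours. The numbers fall without a break across 1000 bp, where the wide peaks begin, and end at 2165 bp.

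The 10 widest peaks had modest fold enrichments. Positions are printed counting from 1 with both ends included, so a printed end minus start is 1 bp less than the width. The widest of all spanned 2165 bp on chromosome 7B, from position 613179513 to 613181677 of the wheat assembly used for the alignment (Ensembl). Its summit stood 1736 bp from its start, and its fold enrichment, the ratio of tags at the summit to the local background with a pseudocount of 1 added to each, was 5.44. The next, of 2163 bp on 7B from 721543518 to 721545680, reached a 6.55-fold enrichment. The third spanned 2142 bp on 5A from 332234482 to 332236623 and was enriched 5.94-fold. The fourth lay close to the start of chromosome 2A, from 2268718 to 2270848, and had the highest pileup of the 10 widest, 50 tags. The fifth, on 7B from 18607798 to 18609903, had the lowest pileup, 14 tags, and an off-centre summit 127 bp from its start.

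The others of the 10 widest peaks lay on 7A from 555963527 to 555965616, on 6B from 712193459 to 712195547, on 4D from 21804331 to 21806395, and on 7B from 259403844 to 259405907 and from 697261222 to 697263267. Thus 5 of the 10 were on 7B, 6 on the B subgenome, 3 on A and 1 on D. Chromosome 7B held 24875 of the 467343 listed peaks and 1033 of the 17742 wide ones. B held 35.9% of the list, A 35.3% and D 27.3%, and 10 peaks are too few to set against these shares. Their fold enrichments ranged from 5.33 to 6.98, and 9 of the 10 were below the median of the wide peaks. None had another summit closer than 5813 bp. Whether they lie in exons, introns, UTRs or between genes was not analysed here, for want of an annotation on the same coordinates.

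The wide peaks rested on more tags than the narrow peaks, and also stood on a higher local background. MACS2, the peak caller, derives the fold enrichment and the p-value from the pileup (the tags that overlap the summit) and the local background, so both were worked back from the deposited values. The pileup had a median of 16 tags in wide peaks, with quartiles at 13 and 20, against 10 tags in narrow peaks, with quartiles at 9 and 12. At least 20 tags overlapped the summit in 5153 wide peaks (29.04%) and in 1.36% of the narrow peaks. Over the whole list the share was 8.13%. The largest pileups were rarer still, with at least 50 tags in 124 wide peaks (0.699%) and in 39 narrow peaks (0.0408%), beside 0.122% of all peaks.

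The background moved the same way. Its median was 1.496 tags in wide peaks, with quartiles at 1.13 and 1.95, and 0.722 tags in narrow peaks, with quartiles at 0.621 and 1.16. The lowest background that the caller used, 0.621 tags, was recorded for 97 wide peaks (0.547%) and for 39909 narrow peaks (41.8%), beside 22.2% of all peaks. Expressed as tags in 10000 bp, the median was 85 for wide peaks and 41 for narrow peaks. A background above 5 tags was found for 126 wide peaks (0.710%) and for 35 narrow peaks (0.0367%), beside 0.0993% of all peaks. How far the tags of a wide peak themselves raise the background in the window around it was not tested.

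Fold enrichment, which divides one by the other, separated the classes less. Its median was 6.85 in wide peaks, with quartiles at 6.01 and 7.90, against 5.69 in narrow peaks, with quartiles at 5.55 and 6.28. A fold enrichment above 10 was found for 616 wide peaks, or 3.47% (interval 3.21 to 3.75%), beside 0.973% of the narrow peaks. Over the whole list it was 3.02%, so this share was near the background. The −log10 q-value, which weighs the tag number more, had a median of 9.27 in wide peaks and 6.18 in narrow peaks.

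The strongest peaks of the list were mostly not wide, by fold enrichment or by pileup. Wide peaks made up 21.7% of the peaks with at least 50 tags and 22.9% of those with at least 100, beside 3.8% of all peaks. By fold enrichment, the share of wide peaks was 2.35% among peaks with a fold enrichment of 5 to 6, 5.94% at 8 to 10, 4.85% at 10 to 12, 2.92% at 12 to 15 and 2.38% at 15 to 20. Of the 198 peaks with a fold enrichment above 20, 0 were wide. This allows a share of up to 1.52% by the rule of 3 counts (Wilson upper bound 1.903%). The 42 narrow peaks in that range made up 21.2% of the 198, near their 20.4% of the whole list. Among the peaks above 10 alone, the order of the classes turned round, with a median of 10.6 in the 616 wide peaks and 11.6 in the 929 narrow ones. The same was seen among peaks with an FDR below 1e-10, with medians of 8.13 and 8.64 for wide and narrow peaks. In both subsets the wide peaks still had the higher pileup, with medians of 28 and 20 tags above a fold enrichment of 10, and the higher background, with medians of 1.74 and 0.651 tags.

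**Figure D2:**
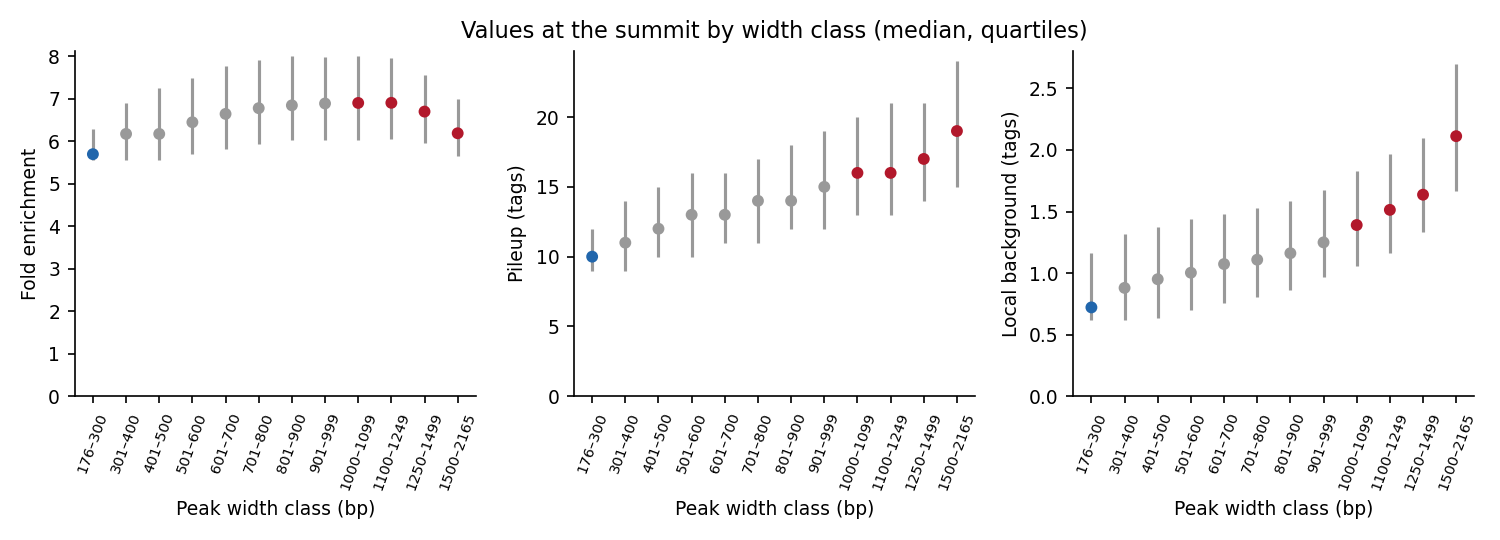
Fold enrichment (left), pileup in tags (middle) and local background in tags (right) at the summit, by peak width class in bp. Points are medians over the peaks of a class and bars reach the quartiles, with peaks of 1000 bp or more in red and of 300 bp or less in blue. Pileup and background are highest in the 1500 to 2165 bp class, at medians of 19 and 2.11 tags, while the median fold enrichment is 6.90 at 1000 to 1099 bp and 6.18 in the widest class.

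Among the wide peaks themselves, wider did not mean more enriched. The median fold enrichment was 6.90 in the 8589 peaks of 1000 to 1099 bp, 6.90 in the 6212 of 1100 to 1249 bp, 6.69 in the 2562 of 1250 to 1499 bp and 6.18 in the 379 of 1500 bp or more. The share with a fold enrichment above 10 was 4.28%, 3.41%, 1.33% and 0.528% over the same 4 classes. The pileup went the other way, with medians of 16, 16, 17 and 19 tags, and the background had medians of 1.39, 1.51, 1.64 and 2.11 tags. At equal pileup the order of wide and narrow peaks in fold enrichment was not the same throughout. With 10 or 11 tags the 1845 wide peaks had a median fold enrichment of 5.96 and the narrow peaks 5.99. With 12 to 14 tags, where 4024 of the wide peaks lay, the medians were 6.37 for wide and 5.99 for narrow peaks, and with 15 to 19 tags, where 6186 lay, they were 7.00 and 6.28. With 30 to 49 tags the wide peaks had 9.31 and the narrow peaks 13.0, with backgrounds of 2.69 and 1.73 tags. With 50 to 99 tags the wide peaks had 9.36 and the narrow peaks 18.7. With 100 tags or more the 36 wide peaks had 10.2 and the narrow peaks 9.21, the latter from only 5 peaks. Wide peaks made up 0.551% of the peaks with 8 or 9 tags, 12.5% of those with 20 to 29 tags and 24.1% of those with 30 to 49 tags.

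The 5 wide peaks with the highest fold enrichment were all shorter than 1400 bp. The first, on the joined unplaced scaffolds from 445811473 to 445812516, had a fold enrichment of 18.7, with 112 tags at a summit 170 bp from its start. The next lay on 2B from 135509415 to 135510544 (18.6, 69 tags), on 1A from 241516618 to 241517682 (18.6, 155 tags), on 4A from 43717547 to 43718633 (18.2, 115 tags) and on 7D from 336506894 to 336508290 (17.37, 109 tags). In 4 of the 5 the summit lay in the first 20% of the peak, and only the 1A peak had it past the centre, at 67.2% of its width. The lowest fold enrichment of a wide peak, 5.002, was that of a 1035 bp peak on 5A from 309786413 to 309787447 with 18 tags. The 3 highest pileups among the wide peaks were picked after the values had been seen. They were 245 tags on 3B from 201488393 to 201489479, a pileup of 226 on 5D from 512406375 to 512407492 and 220 tags on 1A from 554444259 to 554445258. Their backgrounds were 37.7, 29.4 and 20.997 tags, far above the upper quartile of the wide peaks, and their fold enrichments were 6.36, 7.46 and 10.05.

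Summits of wide peaks were spread over the whole peak. The summit place, the offset of the summit from the start as a share of the width, had a median of 49.1% in wide peaks, with quartiles at 32.2 and 66.2%, and of 48.0% in narrow peaks, with quartiles at 40.9 and 55.7%. It lay in the central 20% of the peak for 30.1% of the wide peaks, for 64.1% of the narrow peaks and for 39.6% of all peaks. Off-centre summits were not particular to wide peaks, since the share was 18.9% at 401 to 500 bp, 24.8% at 501 to 600 bp and 30.2% at 601 to 700 bp. The summit lay in the outer 20% at either end for 3756 wide peaks (21.2%) and for 973 narrow peaks (1.02%), beside 7.95% of all peaks. The median distance of the summit from the centre was 17.0% of the width in wide peaks and 7.59% in narrow peaks. Both classes had slightly more summits left of the centre, 51.4% in wide peaks and 56.6% in narrow peaks.

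In bp, the wide peaks showed 2 maxima. The distance from summit to nearer edge had a broad maximum at 400 to 499 bp, with 4776 peaks, and a sharp one just under 176 bp. This length is the width of the shortest peak in the list, and the recovered backgrounds lie on steps of the same length. There were 1510 wide peaks with a summit 152 to 176 bp from an edge, against 755 at 127 to 151 bp and 336 at 177 to 201 bp. In all, 2854 wide peaks (16.1%) had the summit within 176 bp of an edge, beside 70.4% of all peaks. Narrow peaks are too short to have it farther from an edge. The other side of a wide peak was long. The distance from the summit to the farther edge had a median of 755 bp and exceeded 1000 bp, the upper limit of the sonicated DNA, in 1755 wide peaks (9.89%).

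**Figure D3:**
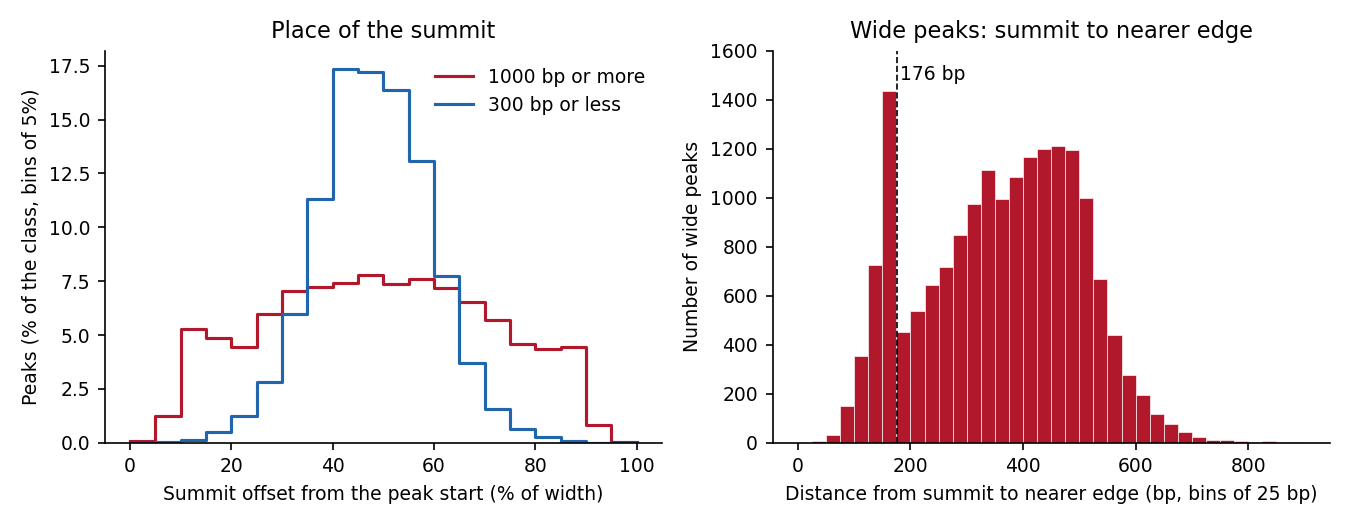
Left, place of the summit in peaks of 1000 bp or more and of 300 bp or less, as the offset from the peak start in % of the width, against the share of each class in %. Right, number of wide peaks by the distance in bp from summit to nearer edge, with a dashed line at 176 bp. Narrow peaks gather at the centre, while the summits of wide peaks are spread over the whole width, and on the right a sharp maximum just under 176 bp, which holds the tallest bar, stands apart from a broad one around 400 to 499 bp.

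Wide peaks with the summit near an edge were the weaker ones. The 2854 peaks with a summit within 176 bp of an edge had a median fold enrichment of 6.44, with quartiles at 5.74 and 7.26, and a median pileup of 14 tags. The 5349 with a summit in the central 20% had a median fold enrichment of 7.07, with quartiles at 6.14 and 8.18, and a median pileup of 17 tags. At least 20 tags were found at 14.9% of the summits near an edge and at 33.0% of those in the centre, and a fold enrichment above 10 for 1.23% and 4.79%. The widths hardly differed, with medians of 1089 and 1098 bp.

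The most lopsided wide peaks had few tags. The lowest summit place, 2.04%, was that of a peak on 5B from 464770738 to 464771867, whose summit lay 23 bp from the start and had 10 tags. The next were on 7B from 616350606 to 616352056 (3.65%, 8 tags) and on 7D from 228728987 to 228730076 (3.76%, 13 tags). The highest summit places were found on 1D from 190239854 to 190241153 (96.5%, 9 tags), on 1B from 374221780 to 374223040 (95.6%, 14 tags) and on 4B from 519586478 to 519587991 (95.4%, 12 tags).

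Every chromosome carried wide peaks, and the B chromosomes carried the largest share. Wide peaks made up 4.01 ± 0.147% of the peaks of a chromosome on B, 3.76 ± 0.144% on A and 3.56 ± 0.119% on D (SD over 7 chromosomes each, which are parts of 1 list and not replicates). The share was higher on B than on A in 7 of 7 homoeologous groups, and higher on A than on D in 7 of 7. Within groups the intervals of A and D overlapped. Those of B and A also did, except on 2B (3.92 to 4.40%) and 2A (3.41 to 3.87%). Pooled per subgenome, the intervals were apart, at 3.92 to 4.11% on B, 3.68 to 3.86% on A and 3.45 to 3.65% on D. The difference between B and A averaged 0.247 percentage points and ran from 0.0591 in the closest group to 0.522 in the widest. The highest share was that of chromosome 2B, with 1068 wide peaks or 4.15% (interval 3.92 to 4.40%), and the lowest that of 3D, with 689 or 3.45% (interval 3.21 to 3.72%). Chromosomes 7B (4.15%) and 2D (3.45%) were next to them and did not differ from them beyond counting error. Over whole groups the share ran from 3.63% in group 3 to 3.89% in group 5, a smaller range than that between subgenomes. Narrow peaks were ordered otherwise, with 19.9 ± 0.467% on B, 20.8 ± 0.439% on A and 20.2 ± 0.376% on D.

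**Figure D4:**
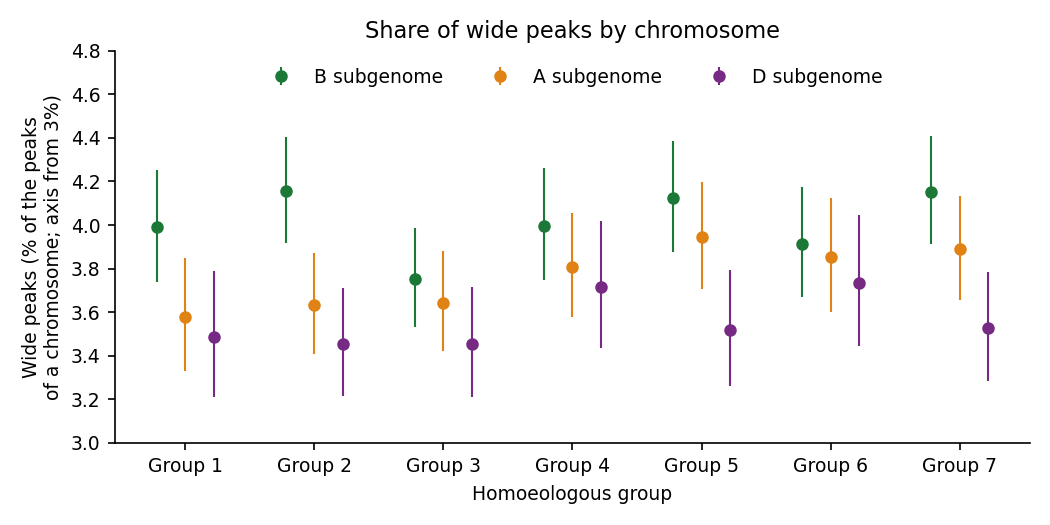
Share of wide peaks among the peaks of each chromosome in %, by homoeologous group, with the B, A and D chromosomes side by side. Bars are 95% Wilson intervals (counting error only) and the axis starts at 3%. The B point is above the A point and the A point above the D point in each of the 7 groups.

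The lead of B grew with the width. B held 34.9% of the peaks of 300 bp or less, 37.1% at 1000 to 1099 bp, 39.9% at 1250 to 1499 bp and 45.4% of the 379 peaks of 1500 bp or more (interval 40.4 to 50.4%). A held 36.0%, 35.3%, 33.9% and 28.5% of the same classes. Peaks of 1500 bp or more numbered 172 on B, 108 on A and 87 on D, or 1.03, 0.655 and 0.682 per 1000 peaks. Their share was higher on B than on A in 6 of 7 groups, and higher on A than on D in only 3 of 7.

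B peaks also had more tags. Summits with 20 tags or more made up 8.68 ± 0.291% of the peaks on B, 7.81 ± 0.117% on A and 7.44 ± 0.198% on D (SD over 7 chromosomes each). Among peaks with a pileup of 10 to 14 tags alone, a comparison chosen after seeing the data, wide peaks made up 2.62 ± 0.138% on B, 2.55 ± 0.183% on A and 2.43 ± 0.109% on D. At that pileup the share was higher on B than on A in 3 of 7 groups, and among all peaks with a pileup under 20 tags, also added after seeing the data, in 5 of 7. The part of the pileup in the order of the subgenomes was not tested further. Among peaks with a fold enrichment above 10 the order of B and A turned round, with 185 of 5063 peaks wide on B (3.65%, interval 3.17 to 4.21%) and 240 of 4711 on A (5.09%, interval 4.50 to 5.76%). Per Mb of chromosome there were 1.30 ± 0.0672 wide peaks on B, 1.26 ± 0.0627 on A and 1.15 ± 0.0414 on D (SD), with B above A in 5 of 7 groups and A above D in 7 of 7.

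The wide peaks of the 3 subgenomes had like medians but differed in their upper ranges. Their median width was 1107 bp on B, 1102 bp on A and 1100 bp on D, and their median fold enrichment 6.83, 6.87 and 6.83. Fold enrichments above 10 made up 2.75% of the wide peaks on B, 3.86% on A and 3.58% on D. Over all peaks they numbered 5063 of 167602 on B, 4711 of 165001 on A and 3532 of 127527 on D. At least 20 tags were found for 30.3%, 26.9% and 29.1% of the wide peaks on B, A and D. Over all peaks these shares were 8.68%, 7.81% and 7.44% (means over 7 chromosomes). A background above 2 tags was more frequent in wide peaks on B (25.0%) and D (23.4%) than on A (19.4%). Over all peaks D was lowest, with 8.15% on B, 7.30% on A and 6.26% on D (means over 7 chromosomes).

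The unplaced scaffolds held 284 wide peaks, or 3.94% of their peaks (interval 3.51 to 4.41%), a share that overlaps the 3.79% on the chromosomes. These wide peaks had more tags, with a median of 19 on unplaced scaffolds and 16 on chromosomes. Summits with 50 tags or more numbered 22 of the 284 (7.75%) and 102 of the 17458 wide peaks on chromosomes (0.584%). Over all peaks, that share was 1.34% on unplaced scaffolds and 0.103% on chromosomes. Fold enrichments above 10 were seen in 10.2% of the wide peaks on unplaced scaffolds and 3.36% of those on chromosomes, near the 11.3% and 2.89% of all peaks there.

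Over the whole list, the wide peaks were spread almost evenly along the chromosomes. With each chromosome cut into 10 equal parts up to its last peak, a part held 9.57 to 10.6% of the wide peaks and 9.41 to 10.4% of the narrow peaks. The outer 10% at both ends together held 3580 of the 17458 wide peaks, or 20.5% (interval 19.9 to 21.1%), and 20.7% of the narrow peaks (interval 20.4 to 20.97%). The wide share was higher than the narrow share on 8 of 21 chromosomes and lower on 13. The difference averaged 0.00805 percentage points with an SD of 2.18 over chromosomes. The pooled difference of -0.199 points was smaller than this spread, and its direction depended on the peaks compared. It was -5.51 points among peaks with a fold enrichment above 10 and -3.80 at an FDR below 1e-10, but 1.57 with a limit of 1200 bp and 0.488 against all peaks under 1000 bp. The outer wide peaks had somewhat more tags, with at least 20 tags in 31.7% of them and in 28.0% of the inner ones. The share was higher at the ends on 18 of 21 chromosomes. These shares were not worked out for all listed peaks, so the difference may not be particular to wide peaks.

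Few bins of 1 Mb held many wide peaks, at a low mean number per bin. Over the 14074 bins on the chromosomes the mean was 1.24 wide peaks per bin, with a variance of 1.34. Of these bins, 4280 held 0, 4873 held 1 and 45 held 6 or more. Whether wide peaks group more or less than their number implies was not tested. The fullest bin, on 3B from 765000001 to 766000000, held 8 wide peaks among 46 peaks. These 8 were spread over 979111 bp, with widths of 1013 to 1363 bp, fold enrichments of 5.06 to 8.63 and pileups of 14 to 28 tags.

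Other listed peaks were rarely found next to a wide peak. Another summit lay within 5 kb of 362 wide peaks, or 2.04% (interval 1.84 to 2.26%), and of 22.1% of the narrow peaks (interval 21.8 to 22.3%). Over all peaks the share was 14.1%. The difference between wide and narrow peaks was -20.0 points, but -5.17 among peaks with a fold enrichment above 10 and -7.52 at an FDR below 1e-10. Within 2 kb the share was 0.930% for wide peaks, 13.5% for narrow peaks and 8.05% for all peaks. From 6 kb the order turned, with 6.54% of the wide peaks and 5.35% of the narrow peaks having their nearest neighbour at 6 to 7 kb. The median distance was 13727 bp for wide peaks and 10818 bp for narrow peaks. Part of this is built into the classes, since the summits of 2 peaks cannot come as close when one of them is wide, and how large that part is was not tested. The share within 5 kb was lower in each wider class, with 3.404% at 901 to 999 bp, 2.51% at 1000 to 1099 bp and 0.264% at 1500 bp or more. The background, which was higher around wide peaks, enters the filter that a neighbour had to pass, and its part in this was not tested.

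**Figure D5:**
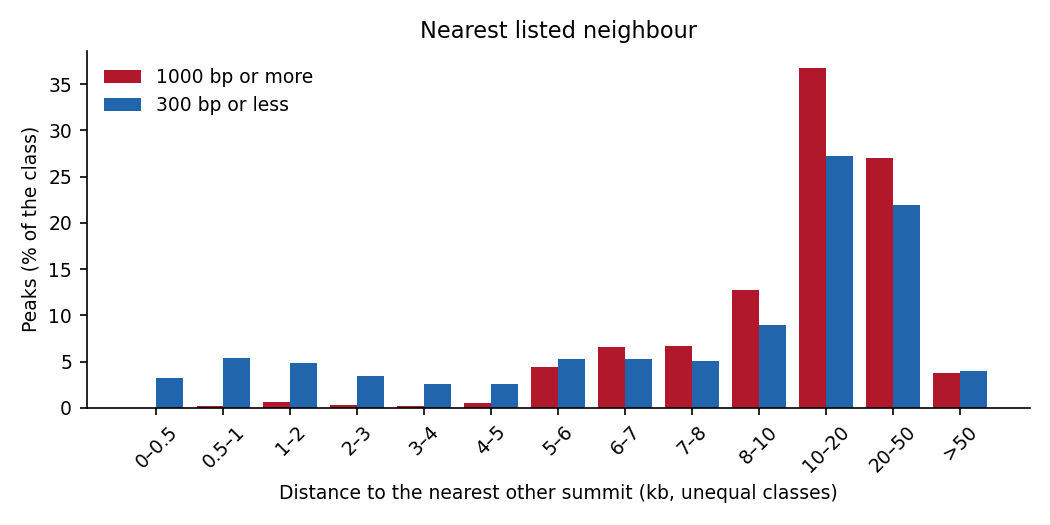
Distance in kb from a summit to the nearest other listed summit, in classes of unequal size, as a share in % of the peaks of 1000 bp or more and of 300 bp or less. The bars of the wide peaks are close to 0 below 5 kb, where 22.1% of the narrow peaks lie, and stand above those of the narrow peaks from 6 to 50 kb.

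For 165 wide peaks another summit lay within 2 kb. The companion was narrow in 60 cases and wide in 0, beside 20.4% narrow and 3.80% wide peaks in the whole list. Peaks with another summit within 2 kb are the closer comparison. Of these 37627 peaks, 12903 were narrow and 165 (0.439%) wide, so both companion counts were near the shares of that set. A wide companion's own width keeps the summits apart, and its part in this 0 was not tested. The companions had a median width of 341 bp. The gap between the 2 peaks had a median of 320 bp and a minimum of 125 bp. The companion had fewer tags at its summit in 99 pairs and more in 43. These wide peaks had a median fold enrichment of 6.02 and a median background of 2.04 tags, against 6.85 and 1.496 tags for all wide peaks. Pairs of wide peaks that followed each other in the list numbered 787. The next peak was wide for 4.44% of the wide peaks (interval 4.14 to 4.75%) and for 3.45% of the narrow peaks (interval 3.34 to 3.57%). Only 1 such pair had its summits within 5 kb, at 4583 bp, and the median distance was 20518 bp.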

How the data were processed

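The labels and the paper's methods describe the processing up to the peak list. The authors trimmed paired reads with Trimmomatic, mapped them with Bowtie2 2.3.4 on the Ensembl assembly of wheat, filtered them by mapping quality with SAMtools 1.9, removed duplicates with Picard and called peaks with MACS2. The control library and any pooling of replicates are not given in the sources used here. The deposited list gives positions and summit offsets in bp, the authors' fold enrichment (a ratio), the −log10 of the p-value and of the q-value, and a score that for 467342 of the 467343 peaks was 10 times that q-value term cut to a whole number. The authors kept peaks enriched over 5-fold at FDRs under 1e-05, and each of the 467343 met this. The total tag number per library was not analysed here, so depth is given as the pileup at each summit.

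The pileup was taken as the whole number that fitted the fold enrichment and the Poisson p-value with a pseudocount of 1, with a misfit under 0.0001 for 100% of the peaks. The procedure was tested on simulated data. Above the lowest value, backgrounds lay on steps of 176 bp over 10000 bp. Relative positions used the last peak end of each chromosome. Wilson intervals at 95% cover counting error only. No test was made, since 1 list has no replicates. Members and measures were chosen with earlier results of these data known. Named regions followed a rule: the 10 widest, the 5 highest and the lowest by fold enrichment, the 3 lowest and 3 highest summit places, the fullest 1 Mb bin and the extreme chromosomes. Alternatives changed the peak threshold, the width limits, the outer part and the merging of peaks. Python 3.11.15, numpy 2.4.6, pandas 2.3.3, scipy 1.17.1 and matplotlib 3.10.9 were used.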

Additional observations from a re-analysis of the deposited data

How the results depend on the processing

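The number of wide peaks was 17742, with 616 (3.47%) at a fold enrichment above 10, beside 3.02% of all peaks. At an FDR below 1e-10 there were 7486 (42.2%), beside 19.9% of all peaks. The number was 58461 with a limit of 800 bp and 4384 with a limit of 1200 bp. Merging touching peaks left it at 17742, and could not change it, since listed peaks lay at least 125 bp apart. Dividing the share of wide peaks on B by that on A gave 1.07, which reversed to 0.717 above a fold enrichment of 10. It was 1.13 with a limit of 1200 bp, and, in alternatives added after seeing the data, 1.03 at a pileup of 10 to 14 tags and 1.02 at a pileup under 20 tags. The ratio of D to A, 0.942, was 0.900 above a fold enrichment of 10 and 0.983 with a limit of 800 bp. The difference between wide and narrow peaks in the share in the outer 10% was -0.199 points. It was -5.51 above a fold enrichment of 10, -3.80 at an FDR below 1e-10 and -1.003 with outer parts of 20%, and reversed to 1.57 with a limit of 1200 bp and to 0.488 against all peaks under 1000 bp.

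The following differences are medians of wide minus narrow peaks, under a fold enrichment above 10, an FDR below 1e-10, limits of 800 and 1200 bp, and against all peaks under 1000 bp, in this order. The summit's distance from the centre differed by 9.42% of the width, and by 8.54, 9.92, 8.71, 10.7 and 3.94%. Pileup differed by 6 tags, and by 8, 5, 5, 7 and 4 tags. Background differed by 0.774 tags, and by 1.09, 0.915, 0.563, 0.933 and 0.528 tags. The share with a neighbour within 5 kb differed by -20.0 points, and by -5.17, -7.52, -18.4, -20.9 and -12.6 points. Fold enrichment differed by 1.16, reversed to -1.02 and -0.510 under the first 2 settings, and was 1.00 with a limit of 1200 bp and 0.682 against all peaks under 1000 bp. The causes were not tested.

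No paired analysis was possible because 1 list was deposited for all libraries, and no replicate was left out for the same reason. Fewer than 20 tags lay at the summit of 71.0% of the wide peaks, which limits the precision of any single fold enrichment or summit position.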
